A study of Homo sapiens with 4 samples.

Results

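Transcript levels of the EGFR receptors, their ligands and the receptor inhibitor ERRFI1 were compared between PC-3 cells that overexpressed RRM2 and PC-3 cells with an empty vector. The 8 genes (EGFR, ERBB2, ERBB3, AREG, EREG, HBEGF, TGFA and ERRFI1) were chosen by gene symbol and make up 8 of the 17634 genes in the count table. All 8 passed the filter on low counts. PC-3 is an established prostate cancer line, derived from a bone metastasis, that was bought from ATCC and grown in media with fetal bovine serum. RRM2 is the small subunit of ribonucleotide reductase, the enzyme that makes deoxyribonucleotides. In PC-3-RRM2, RRM2 came from a lentiviral vector and the cells were kept as a stable line under puromycin, while PC-3-EV carried the empty vector. Each group had 2 libraries of total RNA. The sources do not say whether a line is a clone or a pool, or whether libraries of one group are separate cultures, so p-values measure only the spread between these libraries.

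EGFR, ERBB2 and ERBB3 are receptor tyrosine kinases of the epithelial cell surface. AREG, EREG, HBEGF and TGFA are made as membrane-bound precursors, which metalloproteases such as ADAM17 cut to release the growth factor. The growth factor then makes EGFR pair with itself or with ERBB2 or ERBB3, and the paired kinases signal through RAS-ERK and PI3K-AKT. ERBB2 has no known ligand of its own, and ERBB3 has little kinase activity and depends on its partner. ERRFI1, also called MIG6, binds the kinase domain and blocks it, and its own transcription is raised by receptor signalling. In prostate epithelium these ligands act in a paracrine or autocrine way.

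The libraries held between 30149181 and 37801301 assigned read counts. RRM2 itself was 21.3 ± 0.705 CPM (counts per 1000000 library counts, SD, n = 2) in PC-3-EV against 97.7 ± 1.56 CPM in PC-3-RRM2 (4.59-fold, adjusted p = 2.53e-06), which matched the labels. The summed level of 5 epithelial markers was 540 to 621 CPM in PC-3-EV against 624 to 723 CPM in PC-3-RRM2, but its members differed. EPCAM rose 7.66-fold (14.3 to 109.9 CPM, adjusted p = 1.57e-06) and CDH1, which encodes E-cadherin, rose 4.95-fold (22.7 to 112.2 CPM, adjusted p = 1.88e-06). KRT19 was lower but under the fold threshold (log2 -0.58, adjusted p = 0.02), and KRT8 and KRT18 were not called. EPCAM and CDH1 were thus higher in the same libraries as EGFR, AREG and EREG, while the keratins were not. The part of these markers in the results was not tested. Androgen receptor had at most 16 counts in a library. The summed leukocyte markers, nearly all CD68, were 92.8 to 109 CPM in all 4 libraries, with PTPRC at no more than 18 counts and CSF1R called higher from 3 and 0 counts to 18 and 11. The summed fibroblast markers, nearly all COL1A1, were 61.6 to 88.5 CPM, with DCN at no more than 9 counts, LUM called higher (2.34-fold) and COL3A1 called lower (log2 -0.77). The summed endothelial markers, nearly all PECAM1 and ROBO4, were 43.8 and 44.9 CPM in PC-3-EV against 16.7 and 15.7 CPM in PC-3-RRM2. CDH5 and VWF, which define endothelial cells, had at most 9 and 4 counts in a library. In bulk RNA, fewer cells with a transcript and less transcript per cell cannot be told apart.

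Start-site sequences are shown for the 3 members that were called higher and for EPGN, a further EGFR ligand beside them on chromosome 4. Each run holds the 250 bases before the start site that RefSeq gives in GRCh38.p14, written 5′ to 3′ on the gene's strand, which is the plus strand in all 4 genes. Capitals mark matches on either strand to 5 short motifs: the TATA box TATAAA, the GC box GGGCGG, the AP-1 motif TGANTCA, the cyclic AMP response element TGACGTCA and the TEAD motif GGAATG.
EGFR, chr7:55018767-55019016: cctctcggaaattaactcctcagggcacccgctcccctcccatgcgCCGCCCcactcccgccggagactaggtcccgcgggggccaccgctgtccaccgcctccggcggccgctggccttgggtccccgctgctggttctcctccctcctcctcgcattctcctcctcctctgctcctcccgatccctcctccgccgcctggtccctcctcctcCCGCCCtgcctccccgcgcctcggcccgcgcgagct
AREG, chr4:74444886-74445135: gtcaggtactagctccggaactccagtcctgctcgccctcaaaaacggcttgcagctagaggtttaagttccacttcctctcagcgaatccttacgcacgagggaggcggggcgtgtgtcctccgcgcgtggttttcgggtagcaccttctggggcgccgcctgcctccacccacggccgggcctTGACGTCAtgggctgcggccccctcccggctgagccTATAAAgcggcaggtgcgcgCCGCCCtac
EREG, chr4:74364895-74365144: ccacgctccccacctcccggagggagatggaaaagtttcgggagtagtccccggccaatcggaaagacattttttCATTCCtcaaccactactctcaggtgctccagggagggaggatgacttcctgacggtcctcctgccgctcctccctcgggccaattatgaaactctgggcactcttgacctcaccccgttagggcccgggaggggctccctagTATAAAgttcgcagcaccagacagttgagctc
EPGN, chr4:74308220-74308469: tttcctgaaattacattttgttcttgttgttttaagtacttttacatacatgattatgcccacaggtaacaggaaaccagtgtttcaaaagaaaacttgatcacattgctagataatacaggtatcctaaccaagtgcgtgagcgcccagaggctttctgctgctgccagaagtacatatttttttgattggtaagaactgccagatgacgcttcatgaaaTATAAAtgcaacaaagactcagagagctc
The windows of AREG, EREG and EPGN each held TATAAA, starting 29, 32 and 29 bases before the start site. A forward TATAAA that starts between 35 and 25 bases upstream was present in 2.17% of 35116 RefSeq promoter windows of the same length. AREG also held the cyclic AMP element at 65 bases before the start, a motif found in 1.65% of all windows, and a GC box at 9 bases. EREG held a TEAD match at 175 bases, a motif found in 11.9% of windows. The EGFR window held 2 GC boxes, found at least once in 42.6% of windows, and no TATAAA, and its GC content was 73.6% against a median of 58% over all windows. A second RefSeq start of EGFR had a window with 2 matches to TATAAA and 2 to the AP-1 motif, which are found at least once in 10.7% and 6.57% of windows. The exact letters TATAAA were not in the windows of ERBB2, HBEGF, TGFA, ERRFI1 or BTC. Variant forms of the TATA box were not searched for, so these windows may still hold one. Matches are a description of these letters only, and binding was not measured.

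Of the 8 members, 3 were called higher in PC-3-RRM2 (EGFR, EREG and AREG), 0 were called lower and 5 were not called. A call needed an adjusted p below 0.05 and a change over 1.5-fold. Over all 15781 genes tested, 9.97% were called higher, 8.19% lower and 18.2% either way. The median log2 fold change of the 8 members was 0.22, against 0.0004 over all genes tested. At an adjusted p below 0.05 and any fold, HBEGF was also higher, where 18.8% of all genes tested were. HBEGF lost this under several alternatives: its adjusted p was 0.0543 with RLE size factors, 0.0901 by DESeq2, 0.169 with the replicate block, and 0.255 and 0.43 without the first and the second PC-3-EV library.

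**Figure D1:**
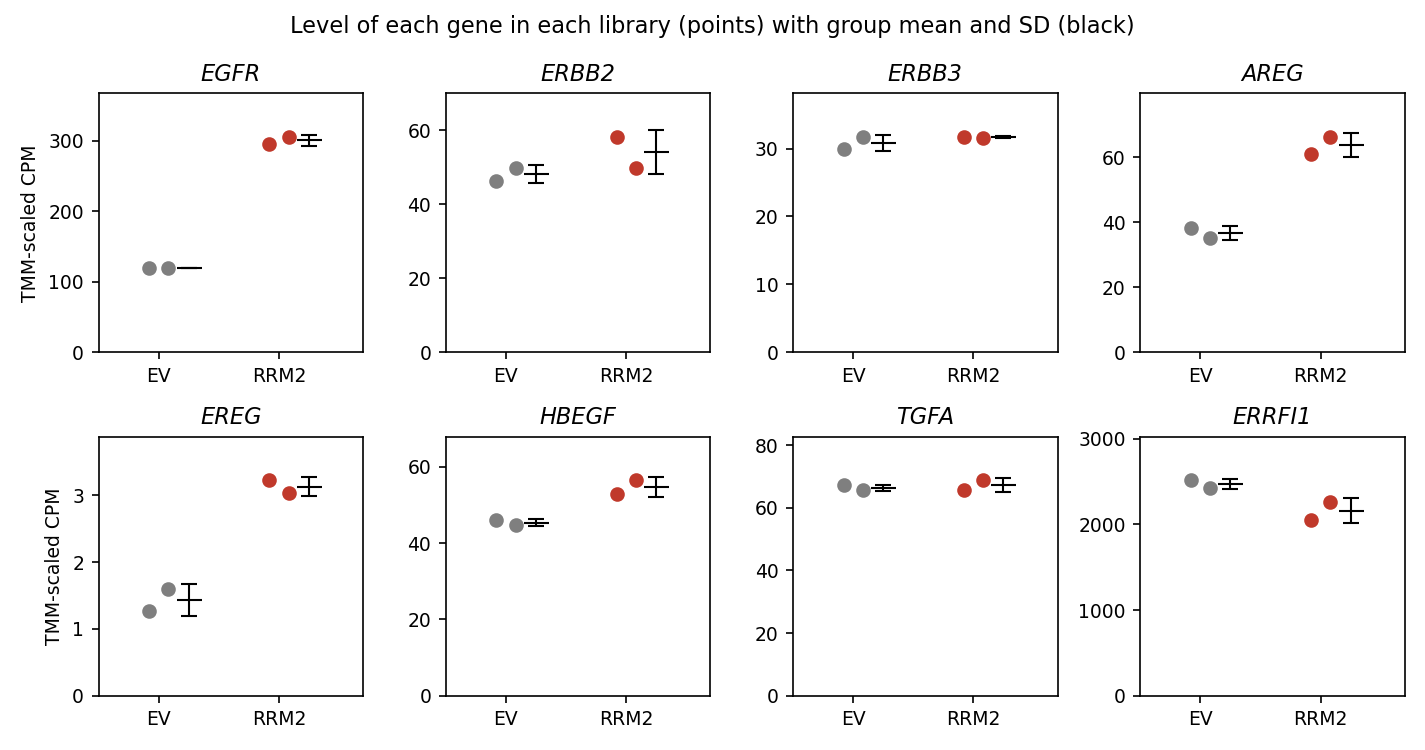
Level of each of the 8 members in CPM, scaled by TMM, 1 panel a gene, with 1 point for each of the 2 PC-3-EV and 2 PC-3-RRM2 libraries and black bars for the group mean ± SD. The PC-3-RRM2 points lie above the PC-3-EV points for EGFR, AREG, EREG and HBEGF, and below them for ERRFI1. The groups overlap for ERBB2, ERBB3 and TGFA. Groups of 2 libraries that do not overlap reach 0.333 in an exact two-sided permutation test, so this separation alone is weak. The share of all genes tested that separate was not counted.

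EGFR was the receptor that rose. This gene encodes the receptor that all 4 member ligands bind, and it spans chr7:55019021-55208080 (GRCh38, plus strand). It was at 119.1 CPM in both PC-3-EV libraries and at 294.6 and 305.6 CPM in the PC-3-RRM2 libraries, from between 3644 and 9269 counts a library. The groups did not overlap, and the spread within each was small beside the gap between them. The group means were 119.1 ± 0.0481 and 300.1 ± 7.73 CPM (SD, n = 2), a 2.52-fold rise (95% interval 2.25 to 2.82, log2 fold change 1.33, SE 0.0695, adjusted p = 1.23e-05). The SD of 0.0481 comes from 2 nearly equal values. It is smaller than counting error and does not measure the spread of the group. The antisense transcript EGFR-AS1 overlaps EGFR and had 26.3 and 16.2 counts in PC-3-EV against 73.0 and 61.5 in PC-3-RRM2. The strand setting of the counting is not given, so reads of this pair cannot be separated, but the antisense counts were at most 0.815% of the EGFR counts in any library.

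ERBB2 and ERBB3, the partner receptors, were not called. ERBB2 (chr17:39688084-39728662, plus strand) was at 46.4 and 49.9 CPM in PC-3-EV and at 58.3 and 49.9 CPM in PC-3-RRM2. The groups overlapped, and only the first PC-3-RRM2 library stood above both controls. Its fold change was 1.12, with an interval from 0.953 to 1.32 (adjusted p = 0.239), so a rise as large as that of EGFR lay outside the interval. MIEN1 on the opposite strand overlaps ERBB2 and had between 596 and 782 counts a library, beside 1513 to 1770 for ERBB2. With no strand setting given, reads of this pair cannot be separated either, which limits the level of ERBB2. ERBB3 (chr12:56080025-56103507, plus strand) was at 29.98 and 31.7 CPM in PC-3-EV and at 31.8 and 31.6 CPM in PC-3-RRM2. All 4 libraries lay close together, with a fold change of 1.03 (0.887 to 1.19, adjusted p = 0.769).

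Among the ligands, AREG rose. AREG encodes amphiregulin, a low-affinity ligand of EGFR, and lies at chr4:74445098-74455009 on the plus strand. It was at 38.2 and 35.2 CPM in PC-3-EV and at 61.1 and 66.4 CPM in PC-3-RRM2. Both PC-3-RRM2 libraries stood above both controls. The means were 36.7 ± 2.14 and 63.8 ± 3.74 CPM, a 1.74-fold rise (1.499 to 2.02, log2 0.80, SE 0.0924, adjusted p = 0.000578). The start site window of AREG is the one above with both a TATA box and a cyclic AMP element.

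EREG encodes epiregulin, which binds EGFR and ERBB4, and was the scarcest member. It lies at chr4:74365143-74388760 on the plus strand. Its rounded counts were 48 and 49 in PC-3-EV against 98 and 92 in PC-3-RRM2, or 1.27, 1.60, 3.23 and 3.03 CPM. The groups did not overlap, and the fold change was 2.19 with a wide interval of 1.56 to 3.09 (log2 1.13, SE 0.214, adjusted p = 0.00547). A test against 1.5-fold itself, in place of no change, still called EGFR but not AREG (adjusted p = 0.0723) or EREG (adjusted p = 0.0618).

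HBEGF and TGFA, the other member ligands, were not called. HBEGF (chr5:140332843-140346603, minus strand) encodes heparin-binding EGF, which is also the receptor of diphtheria toxin. It was at 46.0 and 44.6 CPM in PC-3-EV and at 52.9 and 56.5 CPM in PC-3-RRM2. The groups did not overlap, but the change was 1.21-fold (1.05 to 1.39, adjusted p = 0.0421) and under the fold threshold. TGFA (chr2:70447280-70554015, minus strand) encodes transforming growth factor alpha. It was at 67.2 and 65.6 CPM in PC-3-EV and at 65.8 and 68.9 CPM in PC-3-RRM2. The groups overlapped, and the interval of the fold change was narrow, from 0.894 to 1.15 around 1.01 (adjusted p = 0.86).

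ERRFI1, the inhibitor of the receptor kinases, was by far the most abundant member. It lies at chr1:8011719-8026333 on the minus strand and ranked 12 by mean CPM among the 15781 genes tested. It was at 2518 and 2430 CPM in PC-3-EV and at 2055 and 2263 CPM in PC-3-RRM2. Both PC-3-RRM2 libraries lay below both controls. The fold change of 0.873 (0.769 to 0.991, log2 -0.20, SE 0.0789) had an adjusted p of 0.091 and was not called. At an adjusted p below 0.05 and any fold, 15.5% of all genes tested were lower.

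**Figure D2:**
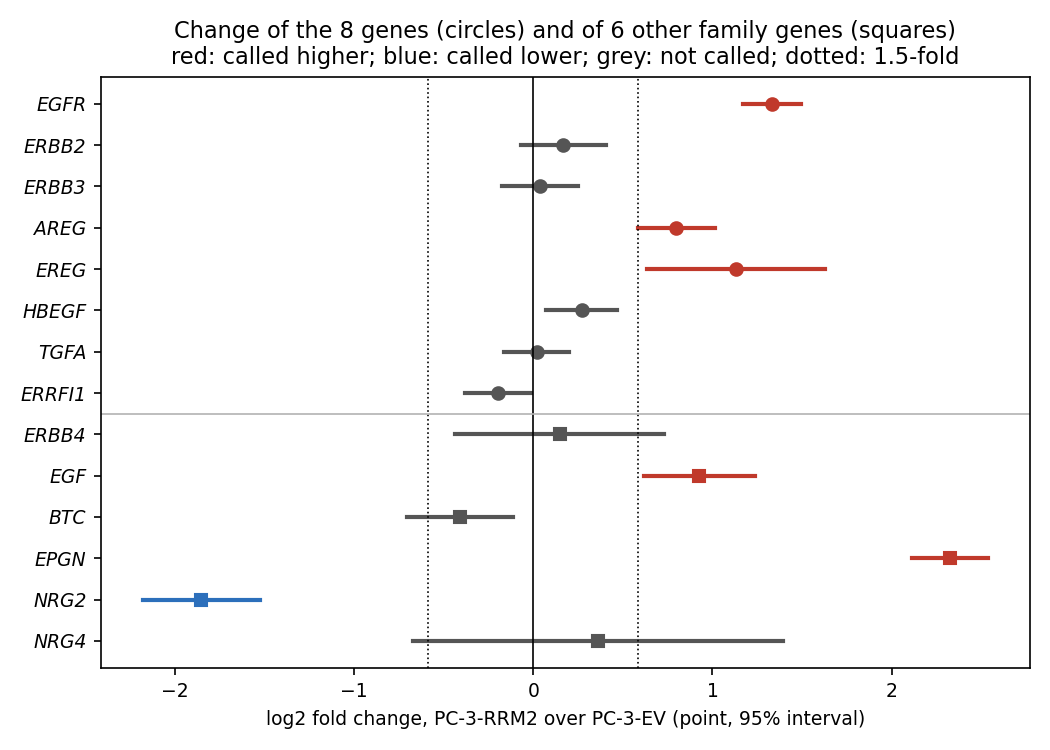
Log2 fold change of PC-3-RRM2 against PC-3-EV, with 95% intervals derived from the F statistic of the edgeR test. Shown are the 8 members and the other measured ERBB receptors and ligands with counts in both groups. Among the members the intervals of EGFR, EREG and AREG lie past 1.5-fold or near it, and EPGN stands highest of all at 2.33.

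The rest of the ERBB receptors and ligands were read from a list of 8 genes, of which 7 were tested. Of these, 3 were called higher, 1 lower and 3 not called, and their median log2 fold change was 0.36. That was 57.1% called either way, against 18.2% of all genes tested. EPGN, which encodes the EGFR ligand epigen, had rounded counts of 1456 and 1066 in PC-3-EV against 5313 and 5852 in PC-3-RRM2. That is 36.7 ± 2.57 CPM against 183.9 ± 12.7 CPM, a 5.01-fold rise (log2 2.33, SE 0.0906, adjusted p = 2.67e-06). Its level in PC-3-EV was close to that of AREG in CPM. EGF, the ligand that gave the receptor its name, rose 1.90-fold from 6.15 ± 0.279 to 11.7 ± 0.50 CPM (adjusted p = 0.00162). Under the test against 1.5-fold its adjusted p was 0.0532.

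The neuregulins, which bind ERBB3 or ERBB4, went different ways. NRG2 had 702 and 619 counts in PC-3-EV against 177 and 149 in PC-3-RRM2, and fell by 1.85 on the log2 scale (adjusted p = 7.64e-05). NRG1 had 0 counts in both PC-3-EV libraries and 13 and 11 in PC-3-RRM2 (adjusted p = 0.00547), at least 6.81-fold higher by an exact 95% bound that covers counting error only, and 9.06-fold against a floor of 3 counts over the group. NRG4 was low and uneven, at 34, 24, 18 and 48 counts, and was not called (adjusted p = 0.564). BTC, which encodes betacellulin, was at 13.4 and 14.3 CPM in PC-3-EV and at 11.1 and 9.79 CPM in PC-3-RRM2, a log2 fold change of -0.41 that was under the fold threshold (adjusted p = 0.0412). ERBB4, the remaining receptor, had between 34 and 53 counts a library and was not called (adjusted p = 0.685).

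To compare the genes with each other, CPM were divided by the kilobases of all annotated exons of a gene (GENCODE 29). On this per-length scale, ERRFI1 led the members in PC-3-EV at 591 ± 14.9 CPM per kb. AREG (22.2 ± 1.30), HBEGF (15.0 ± 0.315), TGFA (13.4 ± 0.218) and EGFR (9.51 ± 0.00385) followed. The SD of EGFR is again that of 2 nearly equal values and below counting error. ERBB2 (4.67 ± 0.240), ERBB3 (3.41 ± 0.131) and EREG (0.251 ± 0.0412) were lowest. No neighbours in this order overlapped between libraries in either group. In PC-3-RRM2, EGFR moved from rank 5 to rank 3, at 24.0 ± 0.617 CPM per kb, past HBEGF at 18.1 ± 0.850 and TGFA at 13.6 ± 0.435. AREG stayed above it at 38.7 ± 2.27 CPM per kb, and ERRFI1 was at 515.8 ± 35.2 CPM per kb. The ranks were the same with the longest transcript as the length.

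The make-up of the receptor pool differed between the groups. EGFR, ERBB2 and ERBB3 summed to 17.3 and 17.9 CPM per kb in PC-3-EV and to 32.7 CPM per kb in both PC-3-RRM2 libraries. EGFR made up 54.9% and 53.3% of that sum in PC-3-EV against 72.0% and 74.6% in PC-3-RRM2. With the longest transcript as the length these shares were 45.6%, 44.0%, 63.6% and 66.8%. The shares of ERBB2 were 26.0% and 27.1% in PC-3-EV against 17.3% and 14.8% in PC-3-RRM2, and those of ERBB3 19.1%, 19.6%, 10.8% and 10.7%, since shares of a sum move against each other. Per kb, EGFR stood to ERBB2 as 2.12 and 1.97 to 1 in PC-3-EV and as 4.17 and 5.05 to 1 in PC-3-RRM2. These ratios depend on the length used. With the longest transcript, EGFR and ERBB2 were nearer, at means of 12.1 and 9.77 CPM per kb in PC-3-EV. In PC-3-RRM2 these means were 30.6 and 11.0 CPM per kb. EGFR stood to its inhibitor ERRFI1 as 0.0158 and 0.0164 to 1 in PC-3-EV and as 0.0479 and 0.0451 to 1 in PC-3-RRM2. Shares and ratios are given with no test, since an exact permutation test of 2 against 2 libraries has 0.333 as its smallest two-sided p.

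In the ligand pool, the 4 member ligands summed to 52.2 and 49.6 CPM per kb in PC-3-EV and to 68.4 and 73.4 in PC-3-RRM2. The share of AREG in that sum was 44.4% and 43.0% in PC-3-EV against 54.2% and 54.9% in PC-3-RRM2. HBEGF held 29.2% and 29.8% in PC-3-EV against 25.6% and 25.5% in PC-3-RRM2, TGFA 25.9% and 26.6% against 19.4% and 18.9%, and EREG under 1% in every library. With EPGN, BTC and EGF added, the 7 ligands of EGFR summed to 79.1 and 75.0 CPM per kb in PC-3-EV and to 170.7 and 185.3 in PC-3-RRM2. EPGN was 26.8% and 25.6% of this larger sum in PC-3-EV against 56.5% and 57.4% in PC-3-RRM2. AREG was 29.3% and 28.5% in PC-3-EV against 21.7% and 21.8% in PC-3-RRM2, although its own level rose. AREG and EPGN were close in PC-3-EV, and their order there changed with the length used.

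**Figure D3:**
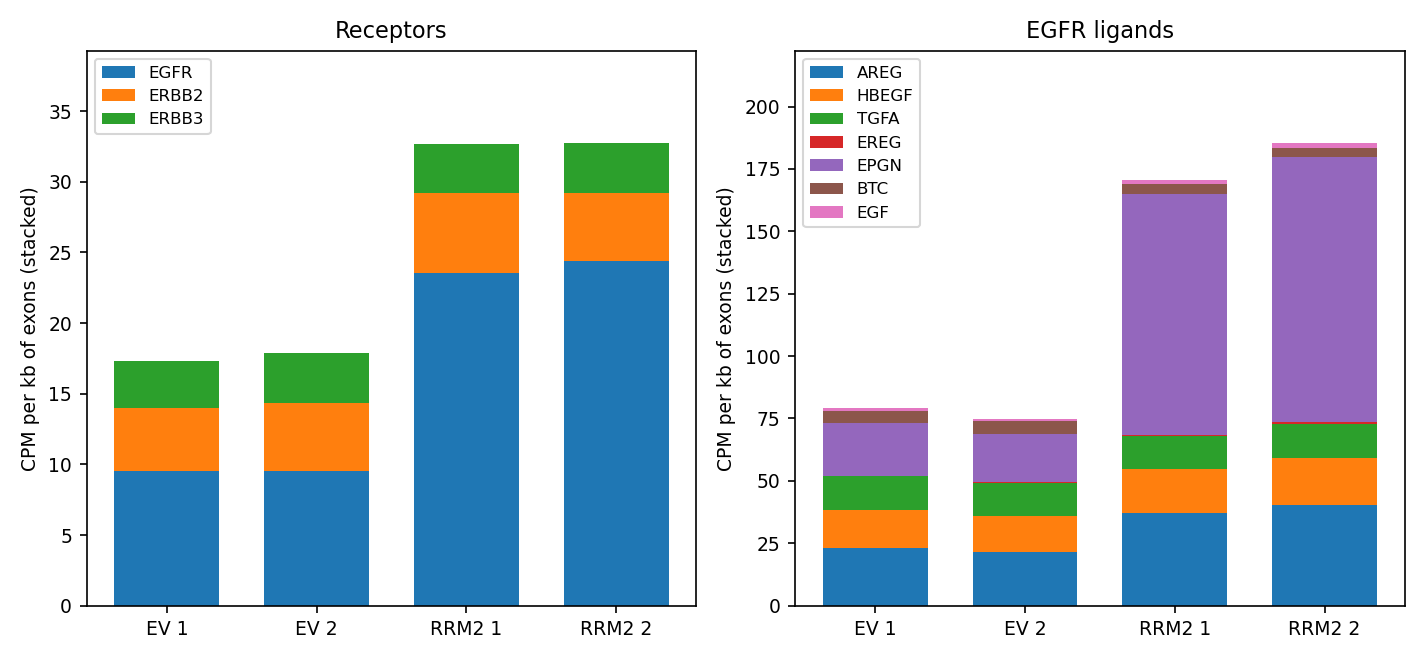
Stacked bars of CPM per kb of exons in each library, for the 3 member receptors and for the 7 ligands of EGFR. The EGFR segment is larger in both PC-3-RRM2 libraries, and the EPGN segment is the largest ligand there at 56.5% and 57.4%.

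AREG, EREG and EPGN lie side by side on chromosome 4. Between EPGN and EREG is a gap of 48.34 kb, and between EREG and AREG one of 56.34 kb, with 0 tested genes in either. BTC lies 289.8 kb past AREG. Within 1 Mb of AREG, 13 other genes were tested, of which 9 were called higher, 1 lower and 3 not called, so 76.9% were called against 18.2% of all genes tested. Those called higher were EPGN, EREG, the tumour suppressor RASSF6 and 6 chemokine genes, CXCL1, CXCL2, CXCL3, CXCL5, CXCL6 and CXCL8, whose products attract neutrophils. The log2 fold changes of these chemokine genes ran from 0.75 for CXCL2 to 2.76 for CXCL8. These names were picked with their values in view. The median log2 fold change around AREG was 1.05, and whether the genes rose for a shared reason was not tested.

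**Figure D4:**
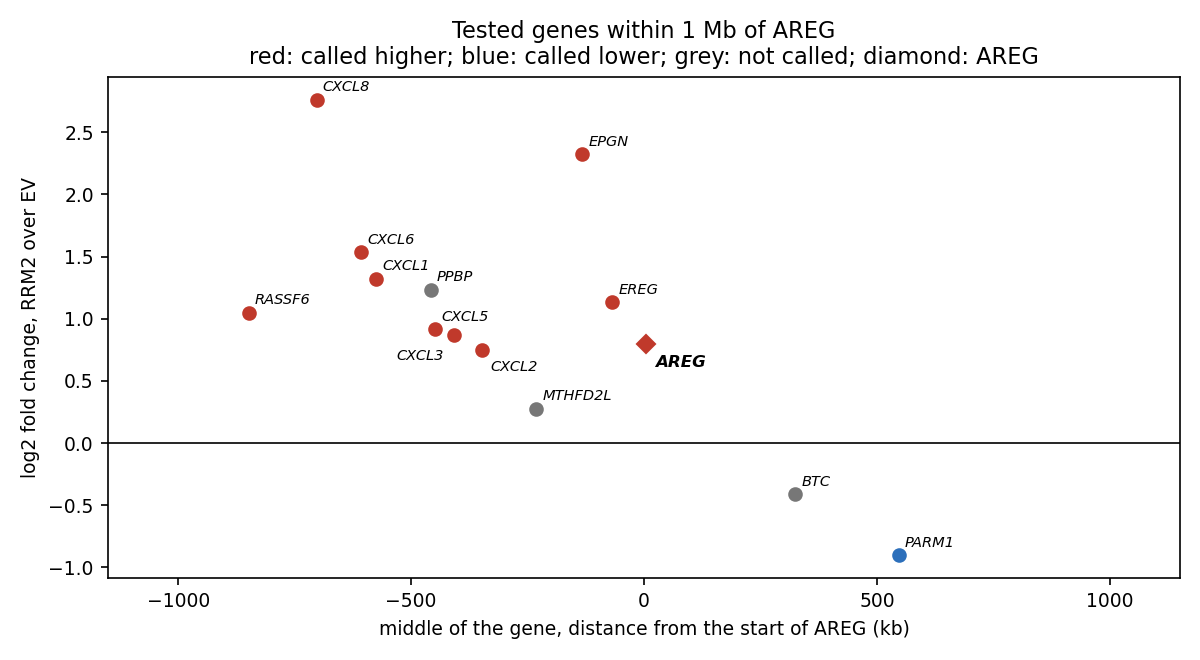
Log2 fold change of PC-3-RRM2 against PC-3-EV for genes within 1 Mb of AREG, against the distance of the gene's middle from the start of AREG in kb. The 9 genes called higher include EPGN at 2.33 and CXCL8 at 2.76, and PARM1 is called lower at -0.90.

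Around EGFR, 13 genes were tested, with 1 called higher, the antisense EGFR-AS1, and 1 called lower (15.4% called). Around ERBB2 it was 6 higher and 2 lower of 42 (19.0% called), and around ERBB3 1 and 7 of 51 (15.7%). Around TGFA it was 5 and 0 of 24 (20.8%), and around ERRFI1 0 and 2 of 9 (22.2%). These shares lay near the 18.2% of all genes tested. Around HBEGF, 1 gene was called higher and 17 lower of 53, 34.0% in all, and the genes called lower were NRG2 and 13 clustered protocadherin genes among others. Genes of the protocadherin alpha cluster share their last exons and those of the beta cluster are alike in sequence, so the counting could split reads between them. HBEGF itself was not called. EREG shares its neighbourhood with AREG, with 9 higher and 1 lower of 14.

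By the pattern over the 4 libraries, EGFR was most like NHS, at a distance of 0.058 on the log2 scale, among 11649 genes with a mean of at least 5 CPM. The nearest genes were PRC1 to AREG (0.012), HOMER2 to EREG (0.05), EIF4A1 to HBEGF (0.014) and ADGRA3 to TGFA (0.0065). ARF1 was nearest to ERBB2 (0.019), EZR to ERBB3 (0.0098) and SLC25A17 to ERRFI1 (0.0074). Few genes lay within 0.1 of EGFR and EREG, 11 and 6, while 831 lay that near to TGFA. With 4 libraries in 2 groups, this likeness mostly follows the fold change.

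The genes that act on the receptors and downstream of them were read from 7 further lists. In each list apart from the targets of ERK, at most 2 genes were called. That was between 0% and 15.4% of the tested genes of a list, against 18.2% of all genes tested. Calls in these lists were thus no more frequent than among all genes. Of the ERK targets, 40.0% were called. Of 12 tested genes of ligand shedding, 1 was called higher, RHBDL2, a rhomboid protease that cleaves EGF-family precursors. It rose 2.66-fold from 2.36 to 6.31 CPM (adjusted p = 0.000642), and the list's median log2 fold change was 0.07. Of 12 adaptors, 1 rose, GRB7, which binds activated ERBB2 and lies 54.5 kb from the start of ERBB2 (2.06-fold, adjusted p = 0.00244, median of the list -0.05).

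Of 13 negative regulators of the receptors, 2 rose and 0 fell, with a median of 0.03. LRIG1, a membrane protein that promotes the breakdown of EGFR, had 87 and 60 counts in PC-3-EV against 196 and 151 in PC-3-RRM2 (2.67-fold, adjusted p = 0.0015). CBLC, a ubiquitin ligase of the CBL family, had 49 and 61 counts in PC-3-EV against 224 and 139 in PC-3-RRM2 (3.67-fold, adjusted p = 0.00241). The groups overlapped for neither gene. Of 16 genes of receptor endocytosis, RAB11FIP1, a recycling factor, rose 1.57-fold (adjusted p = 0.000957), with a median of 0.00. Without the second PC-3-EV library its log2 fold change was 0.58 and under the fold threshold. Of 11 genes of the RAS-ERK cascade, KSR1, a scaffold, rose 1.68-fold (adjusted p = 0.0145, median -0.06), and its adjusted p was 0.0825 and 0.0973 without the first and the second PC-3-EV library and 0.0994 by DESeq2. The test against 1.5-fold called neither RAB11FIP1 (adjusted p = 0.524) nor KSR1 (adjusted p = 0.467). Of 12 genes of the PI3K-AKT cascade 0 were called either way (median -0.06), among them RICTOR (log2 0.01, adjusted p = 0.918).

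Most genes of a list of 16 transcriptional targets of ERK lay lower in PC-3-RRM2. The list holds many feedback inhibitors, was chosen with earlier results of these data known, and does not stand for all ERK targets. Of 15 tested genes, 5 were called lower, 1 higher and 9 not called. Their median log2 fold change was -0.39, with 13 of 15 below 0. At an adjusted p below 0.05 and any fold, 11 of 15 were lower, against 15.5% of all genes tested. SPRY4, a feedback inhibitor of RAS-ERK signalling, went from 276.7 to 113.3 CPM (log2 -1.29, adjusted p = 1.68e-05). DUSP4, a phosphatase of ERK, went from 714.9 to 364.5 CPM (log2 -0.97, adjusted p = 0.000139). DUSP6, also an ERK phosphatase, went from 195.7 to 126.5 CPM (log2 -0.63, adjusted p = 0.000575), and without the first PC-3-RRM2 library it was at -0.58 and under the fold threshold. SPRED2 (log2 -0.62) and EPHA2 (log2 -0.63), named after their values were seen, were the others that fell, and without the second PC-3-RRM2 library EPHA2 was at -0.43 and under the fold threshold. IER3, an early response gene, rose from 422.7 to 787.4 CPM (1.86-fold, adjusted p = 0.000606). The test against 1.5-fold ended the calls of DUSP6 (adjusted p = 0.656), SPRED2 (adjusted p = 0.755) and EPHA2 (adjusted p = 0.833), and not those of SPRY4, DUSP4 and IER3. These are transcript levels, and ERK activity was not measured.

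**Figure D5:**
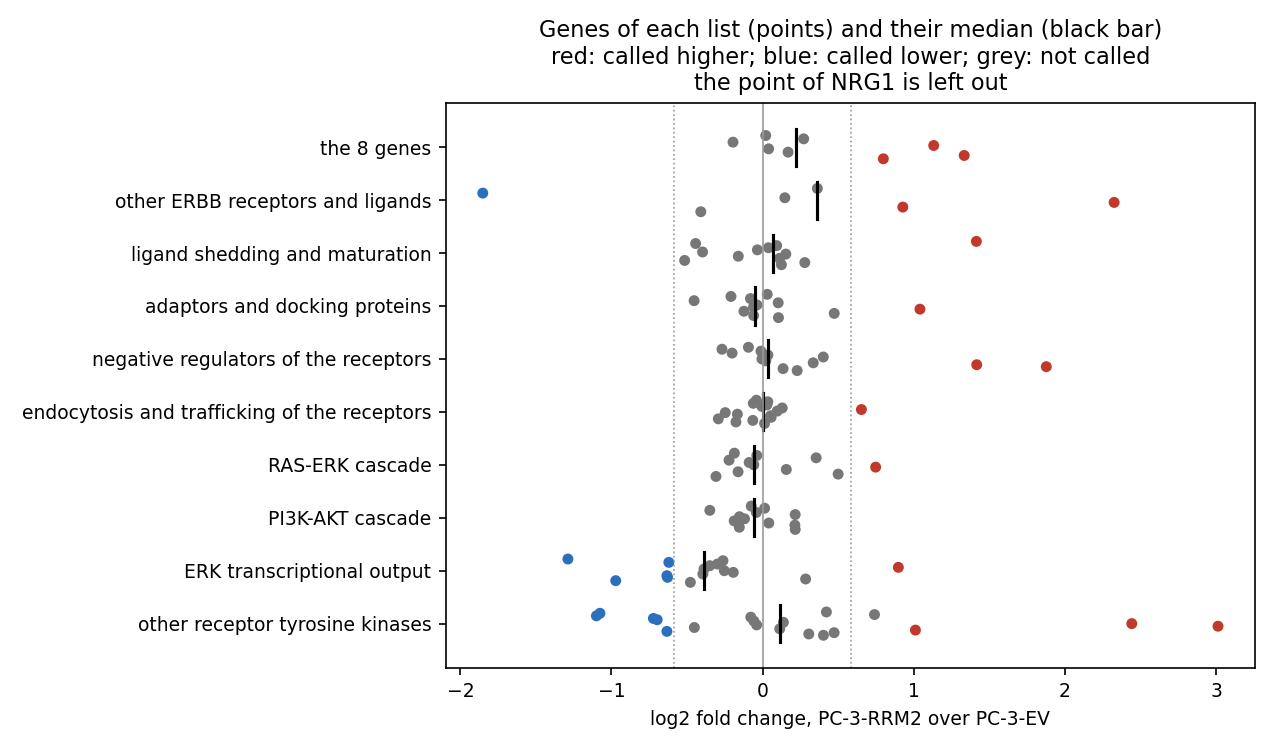
Log2 fold changes of PC-3-RRM2 against PC-3-EV for the 8 members and each list of related genes, 1 point a gene, with a bar at the list's median and NRG1, at 0 counts in PC-3-EV, left out as a point. The median of the listed ERK targets is -0.39. The medians of the shedding, adaptor, regulator, endocytosis and cascade lists lie between -0.06 and 0.07.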

How the data were processed

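RNA-seq of total RNA covered 4 libraries, with 2 × 50 bp reads. The deposited table held estimated counts for each gene, which the authors made in Partek Flow and did not normalize. Its version, the aligner, annotation and strand setting were not given in the sources used here. Between 56.0% and 57.7% of values in a library were whole, at a tolerance of 1e-09, so counts were rounded.

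Genes were filtered with filterByExpr, scaled by TMM and compared with edgeR's quasi-likelihood F-test (version 4.0.16, R 4.3.3), with Benjamini-Hochberg adjustment over 15781 genes. A gene was called at an adjusted p below 0.05 and a change over 1.5-fold, thresholds the study states. CPM are given as mean ± SD, and intervals are 95%. The test gives no SE, so the SE was taken as the absolute log2 fold change divided by the square root of F. Intervals of the edgeR fold changes are the log2 fold change plus or minus this SE times a t quantile. Alternatives were DESeq2 1.42.0, limma 3.58.1, other scalings and filters, a test against 1.5-fold, a replicate block and each library left out. Named genes were the members, the measured ERBB receptors and ligands, up to 4 called genes of smallest p per list (2 of highest CPM where none was called) and the gene of nearest pattern. One gene that this rule names is not reported here. Members and lists were chosen with earlier results of these data known. Promoter sequences came from RefSeq, where 7 of the 8 members matched.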

Additional observations from a re-analysis of the deposited data

How the results depend on the processing

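The members called higher were 3, and those called lower 0, in every alternative except the test against 1.5-fold, which called 1 member higher and, over all genes, 781 higher and 479 lower. Log2 fold changes over the alternatives ran from 1.29 to 1.36 for EGFR, 0.69 to 0.86 for AREG, 0.94 to 1.25 for EREG, 0.20 to 0.32 for HBEGF and -0.27 to -0.13 for ERRFI1. Leaving out 1 library at a time turned the sign of genes that were never called: ERBB3 ran from -0.02 to 0.04, TGFA from -0.04 to 0.05, ERBB4 from -0.05 to 0.31, NRG4 from -0.51 to 0.90 and RICTOR, of the PI3K-AKT list, from -0.09 to 0.11. In such a fit the lone library is assumed to vary like the other group. With the replicate number as a replicate block, 1628 genes were called higher and 1396 lower, and 3 members higher. The labels do not say that a number marks a shared culture. Deviations of same-numbered libraries from their group means correlated at -0.408 across 15781 genes and at -0.669 across the 11649 with a mean of at least 5 CPM, and genes are not independent. The crossed pairing, added after the data were seen, called 1722 higher and 1531 lower. Libraries of a group differed by more than counting error alone gives. The chi-square per degree of freedom was 6.15 between the PC-3-EV libraries and 15.9 between the PC-3-RRM2 libraries. The reason for this difference was not tested. Low counts limit EREG, NRG1, NRG4 and ERBB4, and 2 libraries a group limit every call.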

Other observations

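The other receptor tyrosine kinases were read from a list of 23 genes, of which 19 were tested. Of these, 3 were called higher, 5 lower and 11 not called, with a median of 0.11 on the log2 scale. That was 42.1% called either way, against 18.2% of all genes tested. FGFR2, a receptor of fibroblast growth factors, had 6 and 7 counts in PC-3-EV against 43 and 52 in PC-3-RRM2 (8.07-fold). EPHB2, an ephrin receptor, rose 2.02-fold. MST1R, the receptor of macrophage-stimulating protein, fell by 1.10 and PDGFRA, a receptor of platelet-derived growth factor, fell by 1.08 on the log2 scale. FLT1 also rose, and KDR, MERTK and EPHA2 also fell, all named after their values were seen, and the test against 1.5-fold did not call KDR (adjusted p = 0.339), MERTK (adjusted p = 0.409) or EPHA2 (adjusted p = 0.833). Per kb of exons, EGFR ranked 6 among the 19 tested kinases and the 4 ERBB receptors in PC-3-EV against 4 in PC-3-RRM2, after AXL (58.6 CPM per kb), MET (54.6 CPM per kb) and EPHA2 (50.6 CPM per kb). ERBB2 ranked 10 and 8, and ERBB3 13 and 12. Libraries of kinases of near rank overlapped in places, so several ranks are not firm. EGFR overlapped DDR1 in PC-3-EV, and AXL, MET and EPHA2 overlapped each other in PC-3-RRM2. ERBB2 overlapped INSR in PC-3-EV, and both MST1R and FGFR1 in PC-3-RRM2. ERBB3 overlapped FGFR4 in both groups. These ranks used only the length of all annotated exons.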
